A study of Mus musculus with 32 samples.

Results

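Chromatin regions near 52 interferon-stimulated genes were followed in mouse blood stem and progenitor cells by ATAC-seq, in which a transposase cuts and tags DNA that is open in the nucleus. A region belonged to the set when one of these genes was its closest protein-coding model, no farther than 50 kb away, and its strength was ranked within each library's peak list by the authors' −log10 p. Of the 52 genes, 50 are protein-coding in GRCm38.p6. Mx1 and Mx2, which encode dynamin-like antiviral GTPases, are listed there as transcribed pseudogenes and so fall outside the rule. The full peak lists held 285 regions of these genes among 146713 in all, on 49 genes, and Ifit3 had none. In lists cut to equal length, 77 of 31846 regions belonged to the set. Of these, 61 regions on 40 genes had a peak in at least 3 lists and were tested, among 23554 tested regions. Oas1a, Oas2 and Gbp6 had equal-length regions in too few lists, and Gbp2, Isg15, Iigp1, Parp9, Ifit3, Ifi44 and Oasl1 had no equal-length region. A region present in all 16 lists touches the models of Dtx3l and Parp9 equally closely and was counted to Dtx3l.

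The cells came from a model of remission after acute myeloid leukaemia. Lethally irradiated C57BL/6J (CD45.2) mice received 800000 wild-type marrow cells (CD45.1+/2+) together with 200000 CD45.1 marrow cells. In AF9-experienced mice these CD45.1 cells were homozygous for hMLL-AF9, a human leukaemia fusion gene, and for its doxycycline-dependent activator rtTA. In naive control mice they carried rtTA only and no hMLL-AF9. All mice were given doxycycline for 5 weeks, starting 6 to 8 weeks after transplantation, and were then left without it for 4 weeks. They then received PBS, or LPS, a bacterial cell wall lipid sensed by Toll-like receptor 4, 24 hours before the marrow was taken. The sorted cells were the wild-type CD45.1+/2+ population that was Lin- cKit+ Sca1+, so they never carried the fusion gene. The promoter of the transgenes, the age and sex of the mice and pooling of animals are not given in the sources used here. Naive mice gave 4 libraries after PBS and 3 after LPS, and AF9-experienced mice gave 4 after PBS and 5 after LPS, with 1 peak list per biological replicate. The labels do not say that replicates came from separate mice, so p-values measure the spread between these samples.

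Interferons bind receptors that activate JAK kinases, which phosphorylate STAT proteins such as STAT2. A complex that holds STAT2 and IRF9 binds the interferon-stimulated response element (ISRE) in the promoters of antiviral genes, while the gamma-activated site (GAS) is the element of the response to interferon gamma. Interferon is known to push dormant blood stem cells into cycle, and stem cells are known to express some of these antiviral genes without infection.

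Many of the start sites hold the ISRE, so stretches of them are shown first. RefSeq promoter sequences (GRCm38.p6, 250 bases before to 50 after the start) matched 41 of the genes by symbol. Entries for Parp9, Usp18, Gbp6, Zbp1, Dhx58, Mx1, Mx2, Rtp4, Oas2, Iigp1 and Parp14 were not matched. The 250 bases before the start of Stat2, the set's strongest start site, and of Isg15, one of its weakest, are given 5′ to 3′ along the gene, with ISRE matches in capitals. Stat2 lies on the plus strand (chr10:128270248-128270497) and Isg15 on the minus strand (chr4:156200819-156201068).
Stat2: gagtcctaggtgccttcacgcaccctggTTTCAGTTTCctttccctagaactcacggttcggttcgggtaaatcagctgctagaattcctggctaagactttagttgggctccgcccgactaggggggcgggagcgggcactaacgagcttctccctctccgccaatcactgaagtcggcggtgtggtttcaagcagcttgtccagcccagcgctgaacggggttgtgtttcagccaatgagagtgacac
Isg15: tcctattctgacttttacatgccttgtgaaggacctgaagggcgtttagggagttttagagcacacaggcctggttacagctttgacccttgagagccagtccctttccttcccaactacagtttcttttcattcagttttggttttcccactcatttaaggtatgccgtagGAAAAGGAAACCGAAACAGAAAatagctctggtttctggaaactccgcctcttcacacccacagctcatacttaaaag
Isg15 held 3 overlapping matches and Stat2 held 1, farther from the start and in reverse.

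Windows of 30 bases around the matches of other genes show how the element is doubled, turned or shared between genes. They come from Ifit1 (plus strand, chr19:34640785-34640814), Oas1a (minus, chr5:120907523-120907552), Bst2 (minus, chr8:71537580-71537609), Irgm1 (minus, chr11:48871428-48871457), Igtp (plus, chr11:58199512-58199541), Irgm2 (plus, chr11:58214903-58214932), Rsad2 (minus, chr12:26456553-26456582), Eif2ak2 (minus, chr17:78882535-78882564) and Trim30a (minus, chr7:104446104-104446133). Capitals mark ISRE matches.
Ifit1: TTTCACTTTCcagtctcagTTTCAGTTTCt
Oas1a: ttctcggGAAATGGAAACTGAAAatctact
Bst2: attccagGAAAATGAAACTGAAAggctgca
Irgm1: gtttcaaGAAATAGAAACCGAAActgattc
Igtp: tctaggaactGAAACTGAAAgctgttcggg
Irgm2: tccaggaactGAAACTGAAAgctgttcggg
Rsad2: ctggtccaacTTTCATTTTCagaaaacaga
Eif2ak2: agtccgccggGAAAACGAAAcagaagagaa
Trim30a: ttgtttttagTTTCTTTTTCtcagttcctg
Oas1a, Bst2 and Irgm1 each held 2 overlapping matches, and Ifit1 held 2 separate ones in reverse. The windows of the neighbouring GTPase genes Igtp and Irgm2 were identical at 29 of 30 bases.

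The ISRE was searched as GAAANNGAAA on both strands, and 22 of 41 members (53.7%) held it, against 3.98% of 16456 protein-coding genes with an autosomal promoter entry. GAS, searched as TTCNNNGAA, was in 29.3% of members against 9.05% of genes. The AP-1 site, searched as TGANTCA, was in 22.0% against 8.23%. ISRE and GAS matches overlapped each other in Bst2 and Ifitm3. A match is a description of the letters and shows no binding. In the 21 members whose strongest start site held the ISRE, 8 held more than 1 match, 12 held matches on the gene's own strand and 9 in reverse. The matches lay wholly before the start in 15 and wholly after it in 6, among them Ifih1, Ddx58, Eif2ak2 and Trim21. In 17 of the 20 with a peak, the middle of the nearest match lay within 100 bases of the median peak summit, with a median distance of 42 bases. Bst2 (109.5 bases), Stat2 (195 bases) and Gbp5 (552.5 bases) were the exceptions. The match of Isg15 lay 6.5 bases from the summit, which rested on 2 lists.

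**Figure D1:**
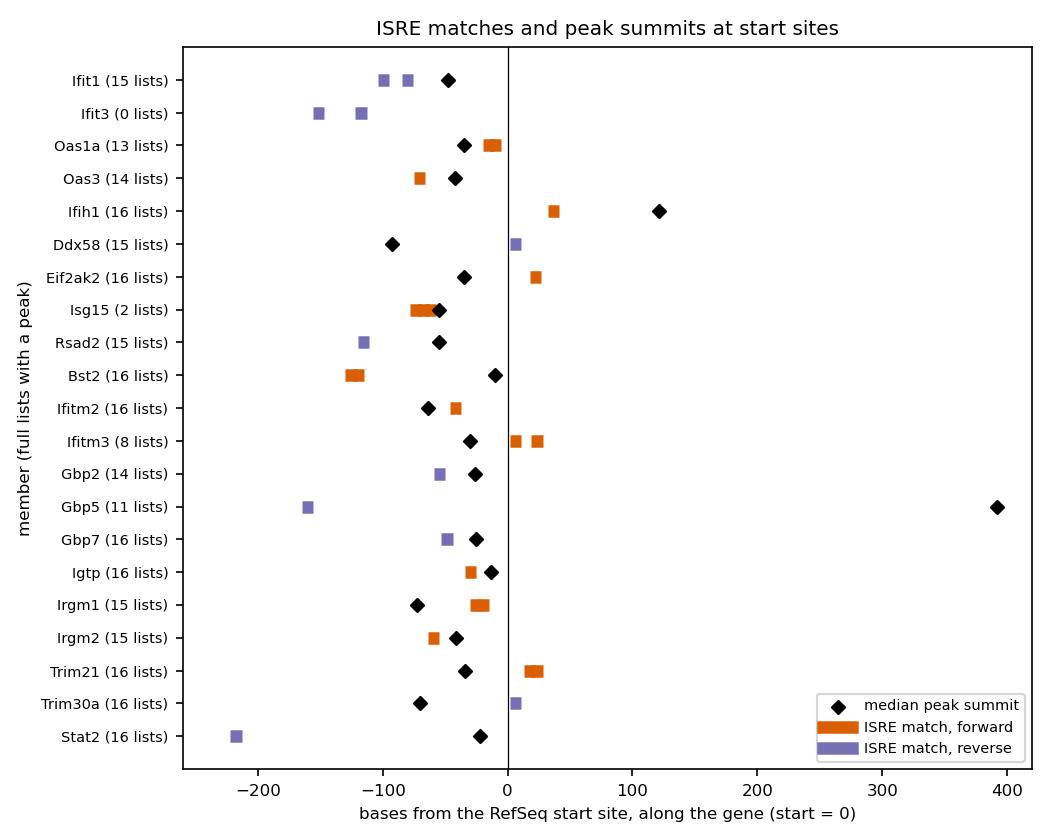
Position of ISRE matches (bars, coloured by strand) and of the median peak summit (diamonds) along the gene, in bases from the RefSeq start, for the 21 members with a match at their strongest start site. In 17 of 20 members with a peak the nearest match lies within 100 bases of the summit, and Gbp5 has its summit farthest inside the gene. Matches were sought only near the start, where most summits lie, so this nearness is partly set by the window.

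Full lists held 19448 to 88816 peaks, and 44 to 188 of these fell to the interferon-stimulated genes. Total reads cannot be taken from peak lists. Each list was cut to its 19100 strongest autosomal peaks, and a region's value in a library is the percentile rank of its strongest peak, where 100 is the strongest and 0 means no peak among those 19100. Libraries 1 of both PBS groups and naive LPS 3 had the shortest lists and stand apart, so counts are also given without them. Outside these 3, the peaks kept had a median fold enrichment, by the authors' values, of 13.9 to 19.4 after PBS and 9.16 to 13.6 after LPS. All 3 naive LPS libraries and AF9-experienced LPS 1 and 2 held 2 or 3 chromosome Y peaks, against 0 or 1 in every other library. Among markers of the sorted cells, 10 of 10 had a gene-end peak in some list and 7 in all 16, while the B cell and NK cell markers and the T cell markers Cd3e and Cd8a were at 0 throughout. The T cell marker Cd3d had a peak in every list.

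Start sites of interferon-stimulated genes had a peak more often than those of all genes in 15 of 16 libraries, at middling strength. In the equal-length lists 41.5% to 70.7% of the 41 members had a peak over the start site, against 44.8% to 51.7% of all genes, with the members' share the lower in naive PBS 1. Where there was a peak, its median rank was 41.0 to 55.1 in members and 73.6 to 76.4 over all genes. Among start sites with a peak, the members' median thus stood lower in each of the 16 libraries. Over all start sites, those without a peak included, the order was the other way: the median of the mean rank was 21.9 in members and 7.25 over all genes, and the median of the mean percentile in the full lists was 70.4 and 61.4. Their promoters held a median of 6 CpG pairs against 15 over all genes. Across genes, the CpG count and the mean percentile in the full lists had a Spearman rho of 0.446 over 41 members and 0.712 over 16456 genes, given as a description because all points share the libraries and their base composition. In the full lists, 17 members (41.5%) had a start-site peak in all 16 libraries, against 43.0% of all genes. Without the shortest list, naive PBS 1, it was 28 members (68.3%) against 48.6% of all genes, and 32 members (78.0%) had a peak in 14 or more lists against 54.8%. Ifit3, Oasl1 and Sp100 had none (7.32%, against 32.7% of all genes). The median of the mean rank was 22.0 in the members with the ISRE and 21.9 in those without.

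**Figure D2:**
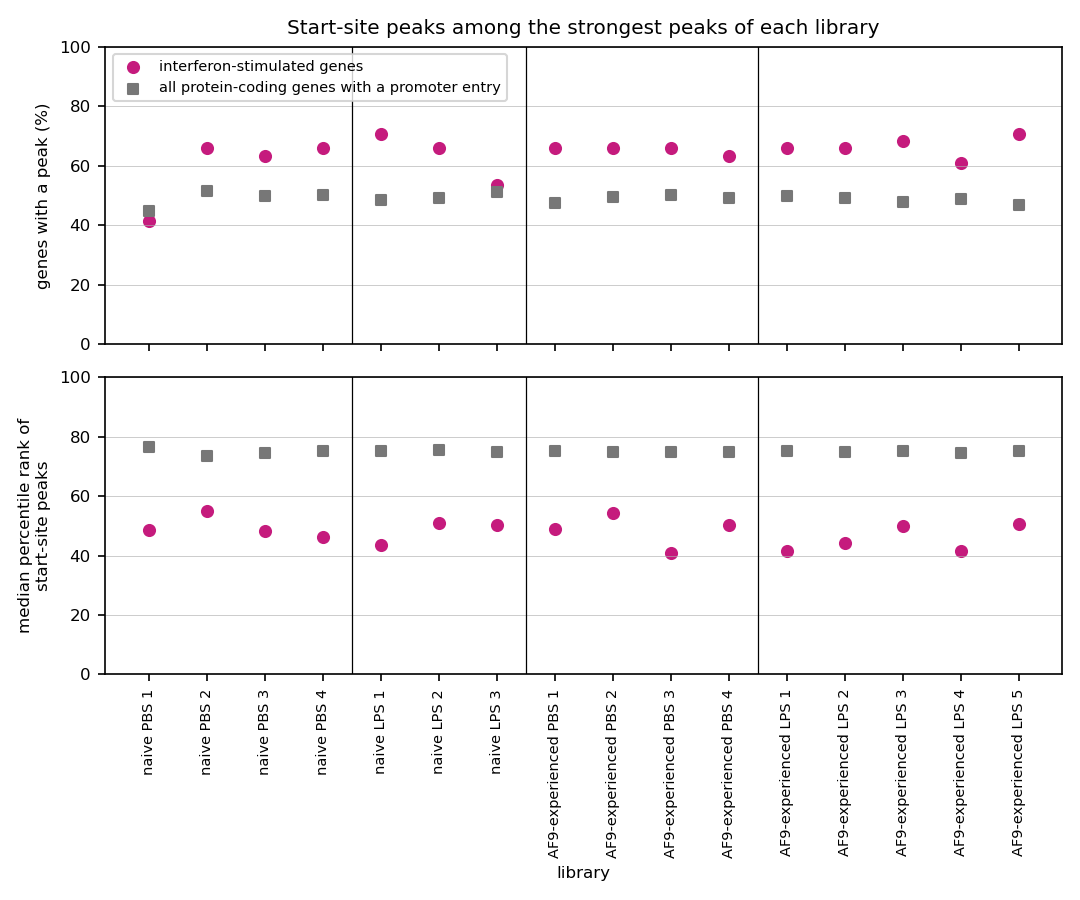
Share of genes with a start-site peak among the 19100 strongest peaks (upper panel, %) and the median percentile rank of those peaks (lower panel) in each of 16 libraries, for 41 interferon-stimulated genes (circles) and 16456 protein-coding genes (squares). Members' peaks rank at 41.0 to 55.1 and those of all genes at 73.6 to 76.4.

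The levels at single start sites spread over nearly the whole scale. Stat2, which encodes a subunit of the ISRE-binding complex, had a mean rank of 89.9, and Cmpk2, a mitochondrial nucleotide kinase, of 74.6. Trim25 (70.5), Bst2 (66.9), Adar (66.8), Ifih1 (66.3), Eif2ak2 (65.5), Parp12 (60.8) and Ifit2 (60.4) followed, with a peak in all 16 lists. Neighbours in this order differed by less than the spread between libraries. At the other end, Isg15, which encodes the ubiquitin-like modifier, had a start-site peak in 2 of 16 full lists, at percentile 34.0 in AF9-experienced PBS 2 and 20.7 in AF9-experienced LPS 1. Ifi44 and Ifitm3 each had one in 8 full lists, at 31.2 or below. Some promoters have near-copies, and reads there may be shared: 65.5% of the 40-base words of Sp100 also occur at Gm7609, 52.5% of those of Ifit3 at Ifit3b and 39.1% of those of Samd9l at Gm20559. Values at these start sites are uncertain for that reason. At the Mx1 and Mx2 models, peaks were present in 14 and 15 full lists, with a mean best percentile of 49.1 and 70.6.

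**Figure D3:**
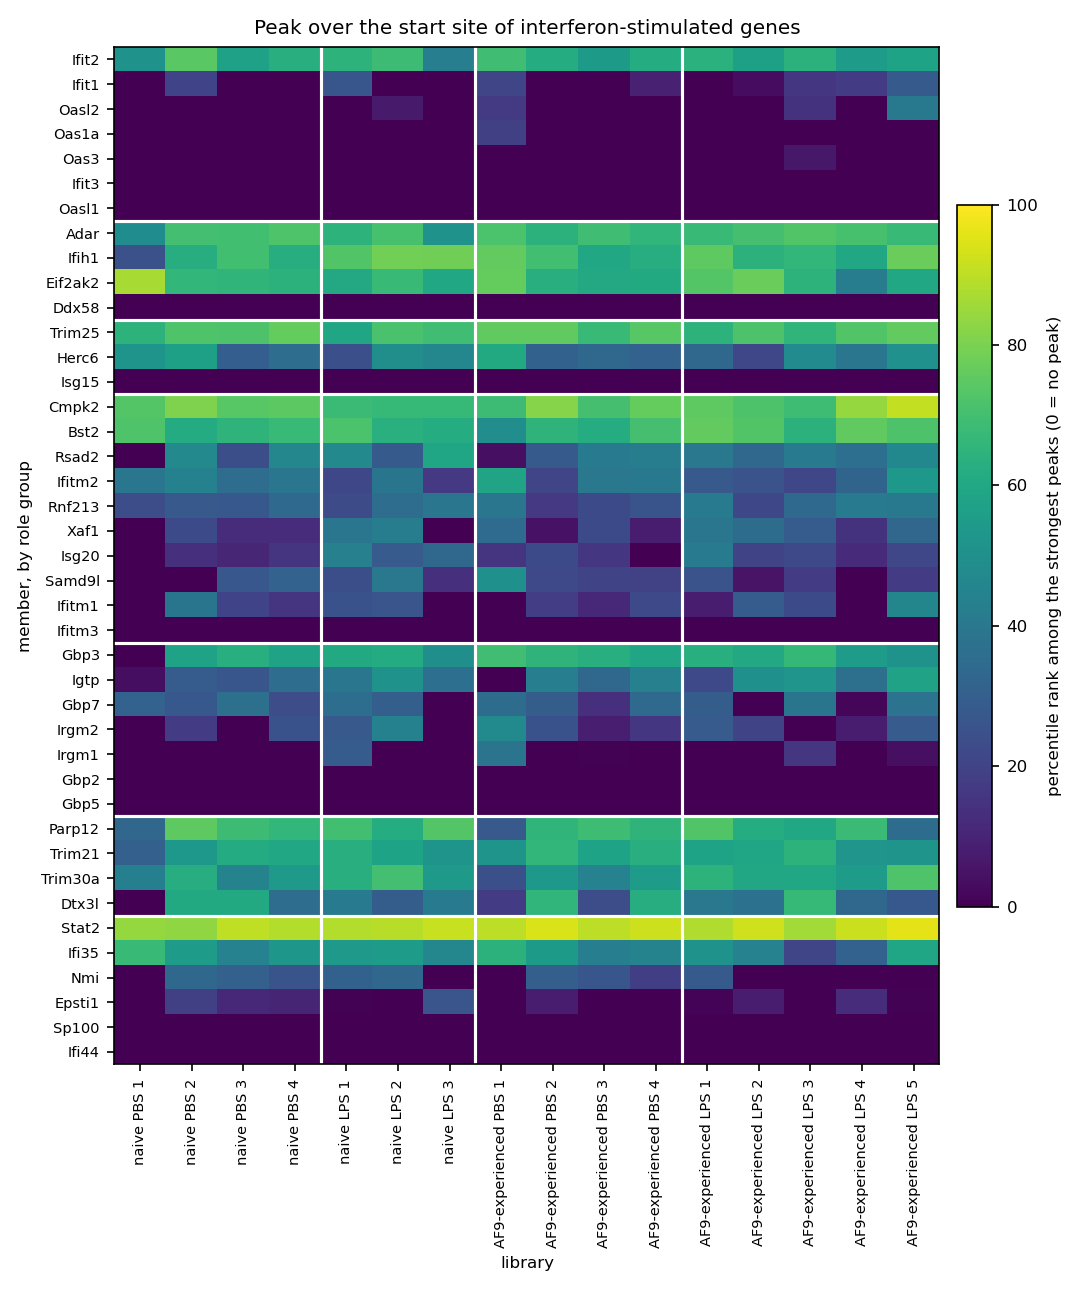
Percentile rank of the peak over the start site (colour, 0 = no peak among the 19100 strongest) for 41 interferon-stimulated genes in 16 libraries, with members in role groups split by horizontal lines and libraries in groups split by vertical lines. Stat2 is high in every library, while Isg15, Ifi44, Gbp2 and Ddx58 are at 0 in every one.

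Compared with all tested regions, member regions were more often at gene ends (within 1 kb of either end of a gene model), 59.0% (36 of 61) against 42.1%. A further 11 lay inside genes and 14 outside. They were in all 16 lists in 42.6% (26 regions) against 46.5%, and their median mean rank was 25.4 against 33.8.

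The first comparison asked what LPS did to these regions in naive mice. No region was called higher and 1 was called lower, 1.64% of 61, where 2.00% of all tested regions were called higher and 1.22% lower (limma, Benjamini-Hochberg adjusted p under 0.05 over 23554 regions). The median difference was 0.955 percentile points over the members and near 0 over all regions. In AF9-experienced mice 1 region was higher and 1 lower, where 3.44% of all regions were higher and 1.74% lower. Averaged over both backgrounds, 4 of 61 were higher (6.56%) and 3 lower (4.92%), beside 7.17% and 5.45% of all regions. The members' shares are near the background in each case. Of 30 tested regions over a start site, 2 were called on average (Isg20 and Trim30a, both higher), and of 31 elsewhere, 5. The median size of the averaged difference, sign aside, was 4.32 points over start sites and 8.77 elsewhere. The same split was not made over all tested regions, so neither the calls nor the sizes can be read as particular to these genes. Among start sites with the ISRE the median averaged difference was 2.53 points over 14 regions, and among those without it −1.06 over 16. The order differed between backgrounds, with medians of 5.14 and −1.83 in naive mice and −1.23 and 2.42 in AF9-experienced mice.

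**Figure D4:**
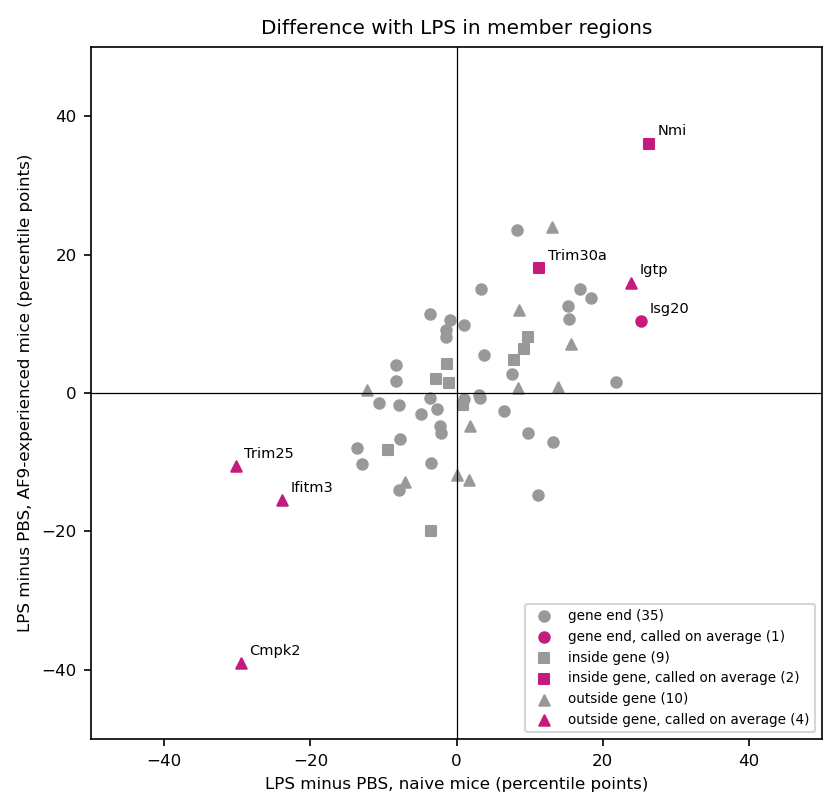
Difference between LPS and PBS in percentile points in naive mice (x axis) and AF9-experienced mice (y axis) for 61 member regions, by position relative to the gene, with regions called in the average of both in magenta. The 7 called regions include 4 outside genes, and Cmpk2 and Nmi lie farthest from the centre in opposite directions.

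The strongest rise was inside Nmi, whose protein binds STATs and enhances interferon signalling, at chr2:51953470-51954370. In naive PBS libraries 1 to 4 its rank was 0, 20.4, 5.37 and 4.20, and in naive LPS 1 to 3 it was 35.6, 47.2 and 18.6. In AF9-experienced PBS it was 20.8, 0, 8.10 and 0, and in AF9-experienced LPS 41.3, 52.8, 44.3, 46.0 and 31.9. The AF9-experienced groups did not overlap, and in naive mice LPS 3 stood below PBS 2. The region rose by 36.0 points in AF9-experienced mice (SE 7.77; adjusted p = 0.00761) and by 31.2 on average (SE 5.89; adjusted p = 0.00112). The naive difference of 26.3 (SE 8.85) did not pass alone (adjusted p = 0.117). The gene end of Nmi stood at 18.7 to 55.7 in 15 libraries and at 0 in AF9-experienced PBS 1, and its averaged difference of 9.19 did not pass (adjusted p = 0.365).

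The deepest fall was 45.0 kb from Cmpk2, whose gene lies next to Rsad2, at chr12:26524806-26525649. Naive PBS libraries had ranks of 0, 37.7, 45.9 and 34.6, and AF9-experienced PBS libraries 36.5, 44.3, 40.8 and 34.4. All 8 LPS libraries were at 0, and so was 1 PBS library, the short list naive PBS 1. It fell by 39.0 points in AF9-experienced mice (SE 7.68; adjusted p = 0.00404) and by 34.3 on average (SE 5.82; adjusted p = 4.08e-04), while in naive mice the difference of −29.5 had an adjusted p of 0.0690. The region passed the filter of 3 lists only through PBS libraries, so it had to differ, and with no such filter the averaged adjusted p was 8.16e-04. Zero here means below the equal-length limit. In the longer lists described below the same region was listed in each LPS library, at 11.8 to 65.2, and at 79.0 to 82.7 after PBS. The gene end of Cmpk2 itself, the highest among antiviral effectors, averaged 75.6 ± 3.40 (SD, n = 4) and 67.4 ± 0.718 (n = 3) in naive mice after PBS and LPS, and 74.3 ± 5.94 (n = 4) and 78.3 ± 9.06 (n = 5) in AF9-experienced mice. Its averaged difference of −2.12 did not pass (adjusted p = 0.701).

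**Figure D5:**
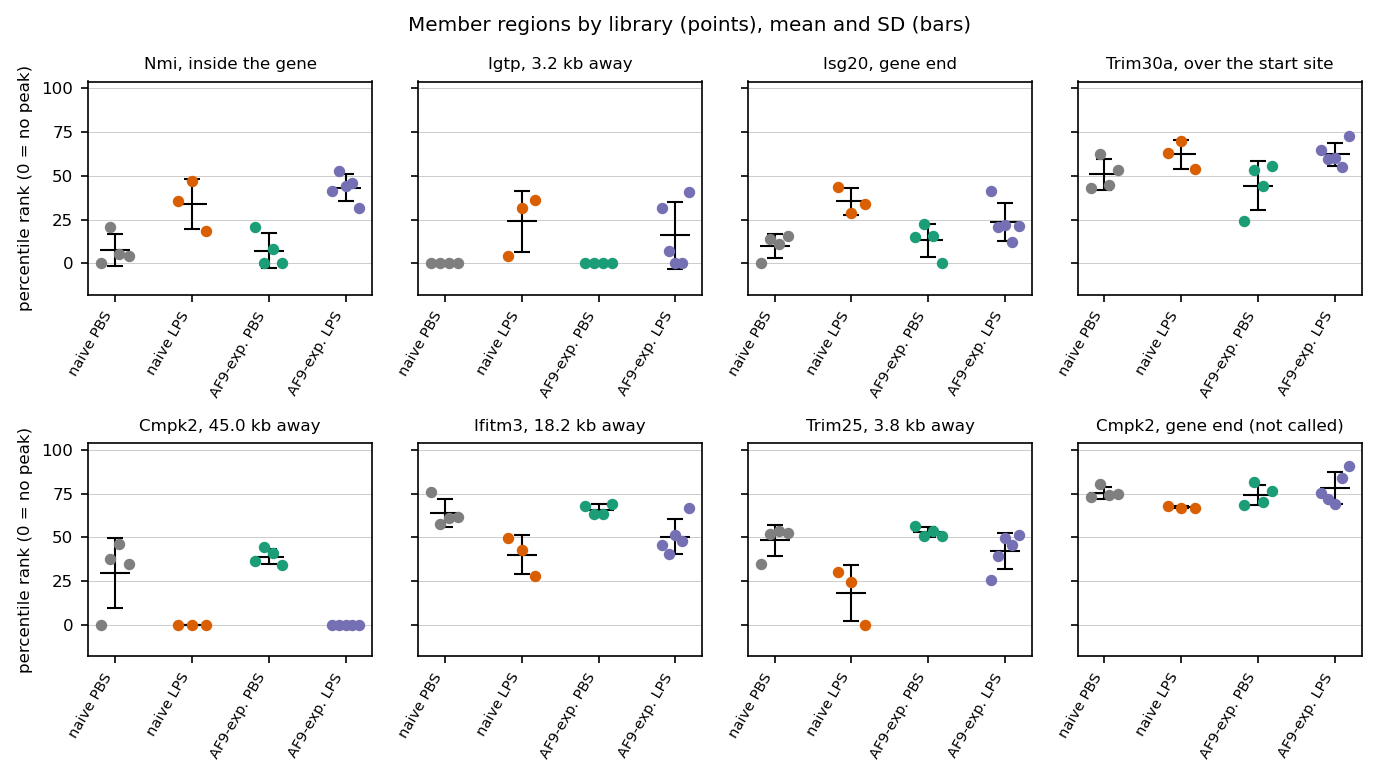
Percentile rank in each library (points) with the mean and SD (bars) by group for the 7 regions called in the averaged LPS comparison and for the Cmpk2 gene end, which was not called. The upper row holds the 4 higher regions and the lower row the 3 lower ones, and the region 45.0 kb from Cmpk2 is at 0 in all LPS libraries.

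Among the other antiviral effectors, a region 18.2 kb from Ifitm3 and 20.2 kb from Ifitm1, membrane proteins that block virus entry, was lower after LPS (chr7:140990056-140991404). Its ranks were 76.0, 57.8, 60.8 and 61.5 in naive PBS, 49.7, 42.8 and 27.9 in naive LPS, 67.7, 63.4, 63.1 and 69.2 in AF9-experienced PBS, and 45.5, 40.4, 51.1, 48.0 and 66.8 in AF9-experienced LPS. Only AF9-experienced LPS 5 reached the PBS range. It fell by 19.7 points on average (SE 4.49; adjusted p = 0.00532), and the naive (−23.9; adjusted p = 0.0539) and AF9-experienced (−15.5; adjusted p = 0.141) differences did not pass alone. At the start of Isg20, an RNA exonuclease (chr7:78913488-78914625), ranks were 0, 13.9, 10.8 and 15.4 in naive PBS and 43.7, 28.6 and 33.6 in naive LPS. They were 14.9, 22.4, 15.7 and 0 in AF9-experienced PBS and 41.5, 20.7, 22.0, 12.1 and 21.4 in AF9-experienced LPS. The naive groups were separate and the AF9-experienced groups overlapped. The rise was 17.8 points on average (SE 5.62; adjusted p = 0.0394) and was lost in 10 of 16 fits that left out 1 library (up to adjusted p = 0.108, without naive LPS 1). Of the 21 tested regions of 11 antiviral effectors, 1 was called higher and 2 lower on average, and the others lay between −11.7 and 15.9. Rsad2, which encodes the radical enzyme viperin, had an averaged difference of 13.1 points at its gene end (adjusted p = 0.268). Bst2, the virion tether, had 4.82 (adjusted p = 0.379).

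In the ISG15 system, the region 3.8 kb from Trim25, an E3 ligase for the RNA sensor RIG-I, was lower after LPS (chr11:89024128-89024701). Naive PBS libraries had 34.8, 51.9, 53.9 and 52.6, naive LPS 30.1, 24.2 and 0, AF9-experienced PBS 56.6, 50.7, 53.5 and 50.6, and AF9-experienced LPS 25.5, 39.6, 49.7, 45.5 and 51.2. All naive LPS values lay below all PBS values. It fell by 30.2 points in naive mice (SE 8.33; adjusted p = 0.0476), and that call was lost in 11 of 16 fits without 1 library (up to adjusted p = 0.206, without naive LPS 3). On average it fell by 20.4 points (SE 5.54; adjusted p = 0.0175), and without naive LPS 3 the adjusted p was 0.0529. The Trim25 gene end stood at 59.2 to 76.5 in every library and its averaged difference was −3.94 (adjusted p = 0.408). Usp18, which removes ISG15 from proteins, had a mean gene-end rank of 68.3 and a difference of 1.36 (adjusted p = 0.823). Herc6, the mouse ISG15 ligase, ranged from 21.2 to 60.9 with a difference of −2.18 (adjusted p = 0.862).

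Of the IFIT and OAS families, which bind foreign RNA or make the signal that activates RNase L, 4 of 8 genes had a tested region, and none was called in any comparison. At an unadjusted p under 0.05 there were 0 as well. Ifit2 was the strongest gene end, at 61.4 ± 9.90 (SD, n = 4) and 58.7 ± 13.8 (n = 3) in naive mice after PBS and LPS, and at 61.8 ± 6.07 (n = 4) and 59.5 ± 4.24 (n = 5) in AF9-experienced mice. The groups overlapped throughout. Oasl2 was the weakest, with a peak in 6 equal-length lists and at most 40.4, in AF9-experienced LPS 5. Averaged LPS differences in these families ran from −8.77 (inside Oas3) to 4.65 (Ifit1).

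The RNA and DNA sensors had 8 tested regions on 6 genes, with 0 called. In the average 3 had an unadjusted p under 0.05 in limma, where 26.5% of all tested regions did. Ifih1, which encodes the double-stranded RNA sensor MDA5 (chr2:62645465-62646655), stood at 24.9, 62.4, 69.7 and 62.5 in naive PBS and at 72.9, 78.9 and 78.1 in naive LPS. It stood at 75.8, 69.6, 60.1 and 62.5 in AF9-experienced PBS and at 75.1, 64.3, 66.4, 59.9 and 77.0 in AF9-experienced LPS. The naive groups were separate, with the short list naive PBS 1 far below the others, and the naive difference of 21.8 points did not pass (adjusted p = 0.129). A weak region 4.4 kb from Ddx58, the gene of RIG-I (chr4:40244184-40244460), was listed at 14.4, 15.5 and 19.5 in AF9-experienced PBS 2 to 4, at 2.18 in AF9-experienced LPS 2 and at 0 in the other 12 libraries. Its difference between AF9-experienced and naive mice after PBS was 12.4 points (adjusted p = 1). The region passed the filter of 3 lists through AF9-experienced PBS libraries, so it had to differ. Eif2ak2, the kinase PKR, and Adar, the RNA adenosine deaminase, differed by −4.81 and −0.375 points on average at their start-site regions (adjusted p = 0.547 and 0.962).

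Of the guanylate-binding and immunity-related GTPases, which attack vacuoles of intracellular pathogens, 6 of 9 genes had a tested region and 1 of 10 regions was called, higher on average. It lies between Igtp (3.2 kb) and Irgm2 (3.4 kb) at chr11:58210767-58211574, the neighbours whose ISRE windows are shown above. All 8 PBS libraries were at 0. Naive LPS libraries had 4.08, 31.6 and 36.0, and AF9-experienced LPS libraries 31.8, 7.06, 0, 0 and 40.9. The mean rise was 19.9 points (SE 6.01; adjusted p = 0.0315), and it was lost in 8 of 16 fits without 1 library (up to adjusted p = 0.0806, without naive LPS 2). The region passed the filter of 3 lists only through LPS libraries, so it had to differ, and with no such filter the adjusted p was 0.0654. The Igtp start site itself differed by 18.4 points in naive mice and 13.7 in AF9-experienced mice (adjusted p = 0.437 and 0.465). A region 6.1 kb from Gbp5 (chr3:142490440-142490790) was at 18.6, 22.9 and 0 in naive LPS and at 2.81 or below in the other 13 libraries. Its naive LPS difference of 13.8 did not pass (adjusted p = 0.0901). This region too passed the filter of 3 lists only through LPS libraries, so it had to differ. Another Gbp5 region, 2.6 kb from the gene, went the other way in naive mice. It stood at 24.7, 20.1, 4.48 and 0 after PBS and at 0 in every naive LPS library. Its difference of −12.3 did not pass either (adjusted p = 0.297). Gbp3 had the strongest gene end of these genes, between 49.7 and 69.3, with a difference of −3.55 (adjusted p = 0.547).

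Among the PARP, DTX3L and TRIM genes, 1 of 7 regions was called, in Trim30a, which restrains Toll-like receptor signalling. That region covers 1 of the gene's 2 start sites, inside the gene model (chr7:104445814-104446931). Its ranks were 43.3, 62.3, 44.8 and 53.5 in naive PBS and 63.1, 69.9 and 53.8 in naive LPS. They were 24.3, 53.4, 44.4 and 55.4 in AF9-experienced PBS and 64.6, 59.6, 60.1, 55.3 and 72.6 in AF9-experienced LPS. Both pairs of groups overlapped. The averaged rise was 14.7 points (SE 4.86; adjusted p = 0.0494), lost in 11 of 16 fits without 1 library (up to adjusted p = 0.145, without naive LPS 2). A second Trim30a region at the gene end differed by 15.9 (adjusted p = 0.123). Parp12, an ADP-ribosyltransferase, differed by 5.19 at its gene end (adjusted p = 0.663), Dtx3l, an E3 ligase, by −3.23 (adjusted p = 0.603) and Trim21, the cytosolic antibody receptor, by 1.93 (adjusted p = 0.822). Parp14 had only weak regions, at most 18.5 in AF9-experienced LPS 1.

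Of the remaining members, Stat2 stood at 84.3, 83.3, 90.4 and 88.4 in naive PBS, at 88.6, 89.4 and 91.5 in naive LPS, at 90.1, 94.2, 90.2 and 92.3 in AF9-experienced PBS, and at 88.1, 92.7, 86.2, 92.2 and 95.8 in AF9-experienced LPS. It was high everywhere, and its averaged LPS difference of 1.27 points (SE 1.63) did not pass (adjusted p = 0.660). The region touches the model of Apof as closely as that of Stat2. Sp100, a nuclear body protein gene, held an inner region at 81.0 on average that differed by −0.419 (adjusted p = 0.948). Ifi35, a binding partner of Nmi, differed by −6.83 (adjusted p = 0.461), and Epsti1 had the weakest gene end of this group, at 8.38 on average.

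The list limit of 19100 leaves out weak member peaks, so the LPS comparisons were repeated over the 13 longer lists, each cut to 59600 peaks. There 146 regions on 46 members were tested among 70009. In naive mice 3 members' regions were higher and 3 lower, beside 3.91% and 2.82% of all regions. In AF9-experienced mice 5 were higher and 3 lower, beside 4.93% and 5.53%. On average 12 were higher (8.22%) and 9 lower (6.16%), beside 10.2% and 11.7% of all regions, so the members' shares were again not above the background. The regions of Nmi, Igtp and Trim30a described above were again higher and those of Cmpk2, Ifitm3 and Trim25 again lower, while at Isg20 a neighbouring gene-end region was called in place of the one above.

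Ranks in these lists are on a scale of 59600 peaks, and the examples below were chosen after their values were seen. The region between Igtp and Irgm2 stood at 48.1, 24.1 and 47.5 in naive PBS, 69.3 and 78.1 in naive LPS, 32.2, 35.0 and 37.2 in AF9-experienced PBS, and 58.4 to 81.1 in AF9-experienced LPS. No LPS value fell into the PBS range, and the averaged rise was 34.1 points (adjusted p = 4.35e-04). A region 6.7 kb from Irgm1, a GTPase needed by stem cells under interferon (chr11:48858024-48858550), was at 0 to 1.17 in the 6 PBS libraries, at 19.0 and 41.0 in naive LPS and at 16.6 to 50.5 in AF9-experienced LPS. The averaged difference was 30.1 points, given with no test because the region passed the filter through LPS libraries. At the Gbp5 region 6.1 kb away, naive PBS libraries had 45.8, 54.2 and 55.7 against 73.9 and 75.3 in naive LPS, a rise in naive mice with an adjusted p of 0.0194. At the gene end of Oasl2, AF9-experienced PBS libraries had 58.9, 53.2 and 52.9 against 66.4 to 80.9 after LPS (adjusted p = 0.0231). At that gene end, 2 naive LPS libraries had 56.2 and 70.2, on both sides of the naive PBS values. A region inside Gbp6 (chr5:105290646-105291367) fell by 33.3 points on average (adjusted p = 0.00569), from 55.4 to 69.2 after PBS to 8.71 to 64.9 after LPS. A region inside Rnf213 (chr11:119419164-119420140), a large E3 ligase gene, fell by 35.0 points (adjusted p = 0.0147).

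Past exposure to MLL-AF9 cells was compared next. After PBS, 0 of 61 member regions were called between AF9-experienced and naive mice, where 0% of all regions were called. After LPS it was 0 of 61, where 0.0127% of all regions were called. The difference between both LPS responses was called in 0 of 61, where again 0% of all regions were. At an unadjusted p under 0.05 there were 2, 3 and 2 of 61, beside 3.20%, 5.38% and 2.94% of all regions. The smallest unadjusted p for exposure after LPS were 0.00530 near Gbp5 (−12.9 points) and 0.00601 near Trim25 (24.2 points), with adjusted p of 0.758 and 0.762. At Trim25 the AF9-experienced LPS libraries (25.5 to 51.2) overlapped the naive ones (0 to 30.1). A Stat2 difference of 5.12 points after PBS (SE 2.27) had an adjusted p of 1. At the Nmi gene end, AF9-experienced PBS libraries (0, 30.4, 26.9 and 18.7) ranked below naive PBS libraries (55.7, 33.7, 30.7 and 26.0) by 17.5 points on average, with overlap (adjusted p = 1). At the Cmpk2 gene end, AF9-experienced LPS libraries (75.1, 72.2, 68.9, 84.2 and 90.9) all ranked above naive LPS libraries (68.2, 67.0 and 66.9), by 10.9 points on average (adjusted p = 0.881). The LPS response of the Ifih1 gene end differed by −20.3 points between backgrounds, which did not pass even unadjusted (limma, p = 0.0555). Without naive PBS 1 that difference was −10.3 points, and over the 13 longer lists −2.11.

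The other genes of the pathway came from a list of 24, of which 21 had tested regions, 59 in all. After LPS, 1 region was higher and 1 lower in naive mice, 4 higher and 0 lower in AF9-experienced mice, and 5 higher (8.47%) and 2 lower (3.39%) on average. The averaged shares are near those of all regions, 7.17% and 5.45%. Cxcl10, a chemokine gene induced by interferon, rose most, by 42.6 points on average at its gene end (adjusted p = 2.23e-05). Regions inside the kinase gene Jak2 (33.2; adjusted p = 8.09e-04), 19.4 kb from the receptor gene Ifnar2 (28.1; adjusted p = 0.00239) and inside Irf2, a repressor of the response (18.1; adjusted p = 0.0251), rose too. The Ifnar2 region passed the filter of 3 lists only through LPS libraries, so it had to differ. A region 5.7 kb from Socs3, a feedback inhibitor, fell by 24.6 points (adjusted p = 0.00283). That region passed the same filter only through PBS libraries, so it too had to differ. The Socs3 gene end went the other way. Its mean rank after PBS and LPS was 66.1 and 77.9 in naive mice, and 68.3 and 81.0 in AF9-experienced mice. The gene end of Irf9, which encodes a partner of STAT2, stood at 77.0 on average over 16 libraries, and that of Irf7, a transcription factor that amplifies the response, at 27.4. For exposure after PBS, exposure after LPS and the difference between LPS responses, 0 of the 59 regions were called (limma; 1, 2 and 2 at an unadjusted p under 0.05).

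Other measures moved with LPS beside these results, and their part in them was not tested except where a fit is given. Monocyte and macrophage markers (Adgre1 and Cd68 of 4; Ccr2 and Vcan at 0) had a summed gene-end rank of 0 to 15.7 in naive PBS, 17.0 to 24.5 in naive LPS, 0 in AF9-experienced PBS and 3.54 to 35.0 in AF9-experienced LPS. Median fold enrichment was lower after LPS, as given above. With it as a covariate, 7 member regions were higher and 3 lower on average. The region 45.0 kb from Cmpk2 passed the filter of 3 lists only through PBS libraries, so it had to differ in the fits below. With the chromosome Y peaks as a covariate only that region remained called on average (adjusted p = 0.0409). Without the 5 libraries that held 2 or more such peaks, a choice made after seeing the data that leaves no naive LPS library, Nmi (33.5 points; adjusted p = 0.0267) and Cmpk2 (−39.0; adjusted p = 0.0331) were still called in AF9-experienced mice. A change in the share of cells with an open region and a change in openness per cell cannot be told apart in these bulk libraries.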

How the data were processed

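Peak lists of 16 ATAC-seq libraries of sorted mouse marrow cells were used, 1 per biological replicate. The labels name 2 technical libraries for each, and Omni-ATAC as well as a Chromium single-cell chemistry; how technical libraries were joined is not given in the sources used here. FastQC, Trim Galore, BWA, Picard, MACS3 and build GRCm38 are named, without versions, per the submitters' processing notes. Each deposited list gives a peak's fold enrichment (a ratio to local background), its −log10 p and −log10 q, and its summit offset in bases; these are the authors' values, not scaled between libraries, so they served to rank peaks within a list. No read depth or interval can be given.

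Lists were cut to the 19100 strongest autosomal peaks and overlapping peaks merged to 31846 regions. Percentile ranks of the 23554 regions found in 3 or more lists were fitted with limma 3.58.1 in R 4.3.3 (4 group means over all 16 libraries, trend and robust), and adjusted by Benjamini-Hochberg over all of them. The script was tested on simulated data. A rank can move because others do, and ranks are no measure of accessibility. Links to RefSeq GRCm38.p6 genes are by position.

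The members and lists were chosen with earlier results of these data known. Named regions were the called ones, the 3 with the smallest p in each contrast, the strongest and weakest gene end of each role group, and members without peaks; any further region named was chosen after its values were seen. Marker lists covered stem and progenitor, T, B, NK, neutrophil, monocyte and macrophage, and endothelial and stromal cells. Neutrophil (Camp only of 5), T cell (Cd3d only) and stromal (Col1a1 only) lists each had 1 marker with a peak. Some results are not reported here. Alternatives covered ranking, list length, thresholds, filters, links, covariates and left-out libraries.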

Additional observations from a re-analysis of the deposited data

Results flagged for a closer look

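In each group of 4 or 5 libraries, the highest and lowest value were checked for a gap to the rest that is large for the group's range (Dixon's 95% value). Of 58 groups examined 5 were found (8.62%), and chance alone gives about 1 in 20. In naive PBS, library 1 was far below the others at the region 3.8 kb from Trim25 (34.8, against 51.9 to 53.9) and at the Ifih1 gene end (24.9, against 62.4 to 69.7). In AF9-experienced PBS, library 1 was far above the others at the Herc6 gene end (60.9, against 31.0 to 34.0) and far below them at the Parp12 gene end (27.8, against 64.9 to 69.1). The same library held 66 member peaks in its full list, against 164 to 181 in the other 3. Both libraries are among the 3 shortest lists.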

How the results depend on the processing

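No comparison of exposure, and no difference between LPS responses, called a member region under any alternative, except that library weights called 1 for exposure after PBS (Ddx58, 16.1 points). That Ddx58 region passed the filter of 3 lists through AF9-experienced PBS libraries, so it had to differ and the call is no evidence of an exposure effect. The naive LPS count of 1 became 0 with ranking by fold enrichment, lists of 9550 peaks, full lists, −log10 q of at least 5, fixed 500 bp windows, no filter on rare regions, chromosome Y peaks as a covariate, or only the groups compared. It became 4 without the 3 shortest lists, 6 with longer lists as well, 7 with library weights, 2 with median fold enrichment as a covariate, and 0 to 2 without 1 replicate each, the highest without naive PBS 1, naive LPS 1 or AF9-experienced LPS 5. In AF9-experienced mice the count of 2 became 0 with shorter lists, full lists and the q limit, 8 with longer lists and with library weights, 5 with median fold enrichment, 1 with links within 10 kb, and 2 to 3 without 1 replicate each. The averaged count of 7 (4 higher, 3 lower) became 1 with shorter lists (0 higher), 0 with full lists, 3 with the q limit (0 higher), 12 without the shortest lists (6 higher), 21 with longer lists, 16 with library weights, 1 with chromosome Y peaks (0 higher), and 4 to 8 without 1 replicate each, the lowest without replicate 3 of either PBS group. With full lists 0.0408% of all regions were called on average. With links within 10 kb it was 5 (4 higher), without a filter 5 (2 higher) and with median fold enrichment 10 (7 higher). The Gbp5 difference for exposure after LPS (−12.9) changed sign to 0.574 with full lists and 3.26 with the q limit, with an adjusted p of 1 each. The cause of these changes was not tested.

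With the replicate number as a replicate block, the counts were 0 in naive mice, 2 in AF9-experienced mice, 4 on average (1 higher, 3 lower) and 0 otherwise. Deviations of same-numbered libraries correlated at −0.215 to 0.231, so the numbers were not taken to pair the samples. Without depth, precision rests on the 3 to 5 libraries a group.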
